A study of Mus musculus with 39 samples.

Results

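Photoreceptors of mice without Nrl (ko) were compared with photoreceptors of wild-type mice (wt) at 4 weeks of age. The comparison holds 8 arrays of the 39 in the series, 4 labelled Nrl-ko-Gfp 4 weeks (the title of ko replicate 1 alone adds the word retina) and 4 labelled wt-Gfp 4 weeks, and it covers the 18193 genes that had a probe set of their own. Mice of both genotypes carried green fluorescent protein (GFP) driven by the promoter of Nrl, and GFP-positive cells were sorted by flow cytometry. Per the labels, GFP marks rods in wt retinas and cells turned into S-cones in ko retinas. Their total RNA was amplified with the NuGEN kit and hybridised to Affymetrix mouse genome arrays. The promoter that sets the sorting gate belongs to the deleted gene, and the labels used here give no sex, strain or pooling of the animals. Nothing in them tells whether replicate arrays stand for separate animals, so p-values measure only the spread between the arrays, which may be technical. The 4 ko and 4 wt arrays at postnatal day 10 (P10), sorted in the same way, serve as the nearest stage of comparison.

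Nrl is a leucine zipper transcription factor that directs newborn photoreceptors to the rod fate, and without it these cells take on features of short-wavelength cones. Rods and cones use the same light-driven cascade, in which an opsin activates transducin, transducin activates phosphodiesterase, and the fall of cyclic GMP closes a cation channel. Most steps are carried out by separate rod and cone versions of each protein, so the 2 sets of transcripts show which kind of photoreceptor was sampled.

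Signals are on the log2 scale, where a step of 1 is a 2-fold change, and a difference is ko minus wt with its standard error (SE). A gene was called at an adjusted p under 0.05 in limma, a linear model fitted over all 39 arrays. The SE and p of a difference therefore draw on the spread within every group of the series. They can understate a wide spread at 4 weeks, as for Nrl, with an SD of 1.69 in ko and an SE of 0.47. Where the mean of the dimmer group lay under 8.0, the level at which the authors' detection calls were about as often absent as present, a fold is written as "at least", since background signal then makes up part of the dimmer level. Values of one gene are set against each other only within its own probe set.

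Nrl itself was checked first. It read 5.66, 9.05, 5.60 and 5.77 in ko replicates 1 to 4, against 12.23, 12.28, 12.22 and 12.33 in wt replicates 1 to 4. All ko arrays lay below all wt arrays, but the array labelled ko replicate 2 stood between the other ko arrays and wt. The difference was -5.74 ± 0.47 (SE, n = 4 each, adjusted p = 9.65e-11), at least 53.5-fold lower, and -6.58 without ko replicate 2 (adjusted p = 1.35e-15). Which part of Nrl its probe set covers, relative to the deleted part, is not given in the sources used here.

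The array labelled ko replicate 2 held 186 genes that were at least 2 (log2) above each of the other 3 ko arrays and 0 genes that far below them, while each other ko array had at most 1 gene that far above and at most 2 that far below the rest. Of the 186 genes, 166 (89.2%) were higher in wt at embryonic day 16 than in wt at 4 weeks by at least 1 (log2), against 1256 of all 18193 genes (6.90%). Rrm2, a subunit of the enzyme that makes the building blocks of DNA, read 5.28, 11.73, 5.11 and 5.61 in ko, against 5.86, 5.62, 6.36 and 5.61 in wt. Sox11, a factor of immature neurons, read 6.82, 12.67, 6.99 and 7.11 in ko, against 8.12, 8.05, 8.40 and 7.90 in wt. Ko replicate 2 was the single high array for both genes. Counts of calls below are therefore given with and without it. Of 101 called genes chosen for naming, 93 were also called without it, and all 101 had the same sign. Many of the 101 had to be called with and without this array to be named, so their agreement was partly set by the choice. Over all genes, 691 of 860 calls were kept in the same direction. In 96 of the 101 named genes the difference moved by at most 0.5 (log2), and the exceptions Nrl, Gnb1, Lrp4, Grb10 and Zfp36l2 are given both ways. Among the wt arrays, replicates 1 and 4 both lay above replicates 2 and 3 for 4767 of the 18193 genes (26.2%) and for 221 of the 383 genes called higher in ko (57.7%). The 3' minus 5' signal of Actb, a measure of RNA quality, differed by 0.45 (exact two-sided permutation test, p = 0.286, lowest possible p 0.0286), with 0.82 to 2.48 in ko and 1.19 to 1.74 in wt.

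At 4 weeks, 860 of 18193 genes (4.73%) were called, with 383 higher in ko (2.11%) and 477 lower (2.62%). The median difference over all genes was 0.03. Without ko replicate 2, 751 genes (4.13%) were called, 341 higher (1.87%) and 410 lower (2.25%), and the median was 0.05. Both fits called 691 genes in the same direction, 318 higher (1.75%) and 373 lower (2.05%). Leaving out ko replicate 2 lost 169 calls, 65 higher and 104 lower, and gained 60, 23 higher and 37 lower. Differences of at least 1 (log2) were held by 229 of the higher and 254 of the lower genes, together 2.65% of all genes. The 4 ko and the 4 wt arrays did not overlap for 760 genes that were higher in ko (4.18%) and 1062 that were lower (5.84%).

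**Figure D1:**
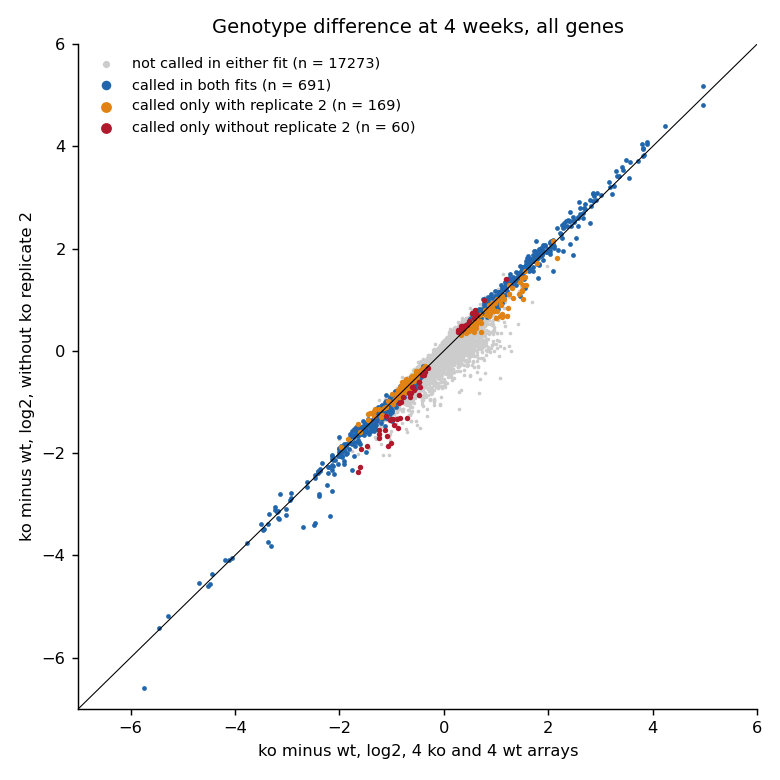
Each point is a gene, with the ko minus wt difference (log2) over all 8 arrays at 4 weeks on the x axis and the same without ko replicate 2 on the y axis. The 691 genes called in both fits lie near the diagonal, and the 169 called only with ko replicate 2 and the 60 called only without it lie mostly among the smaller differences.

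Transcripts of most rod phototransduction genes were lower in ko. Of 10 measured rod members, 7 were called lower and 0 higher with and without ko replicate 2, and the median difference was -3.34 (without it -3.60), against 0.03 over all genes. Gnat1, the alpha subunit of rod transducin, read 7.98, 7.76, 7.84 and 7.91 in ko, against 13.43, 13.31, 13.34 and 13.24 in wt. The groups were far apart and the arrays within each lay close together, with ko replicate 2 beside the other ko arrays. Gnat1 was lower by at least 43.9-fold (difference -5.45 ± 0.30, adjusted p = 1.28e-14, without ko replicate 2 -5.42). In sorted bulk RNA, fewer rods among the cells and less transcript in each cell cannot be told apart.

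Slc24a1, the exchanger that carries calcium out of the rod outer segment, read 6.78, 6.37, 6.81 and 6.54 in ko, against 11.76, 11.68, 11.83 and 12.33 in wt. The groups did not overlap, and it was at least 38.7-fold lower (-5.28 ± 0.41, adjusted p = 3.08e-11). Pde6b, a catalytic subunit of the rod phosphodiesterase, read 8.45, 8.61, 8.91 and 7.43 in ko, against 12.95, 12.86, 12.72 and 12.92 in wt. The ko arrays were all lower but more spread than wt, with replicate 4 lowest, and Pde6b was 22.8-fold lower (-4.51 ± 0.31, adjusted p = 1.69e-12). Cnga1 and Cngb1 encode the subunits of the rod channel. Cnga1 read 7.48, 6.84, 7.14 and 7.07 in ko, against 11.31, 11.35, 11.15 and 11.47 in wt, and Cngb1 7.41, 7.14, 6.95 and 6.86 in ko, against 10.89, 10.06, 10.21 and 10.67 in wt. Neither gene had a ko array near wt, and the differences were -4.19 ± 0.30 (adjusted p = 3.77e-12) for Cnga1 and -3.37 ± 0.35 (adjusted p = 1.88e-08) for Cngb1.

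Gnb1, the beta subunit that rod transducin shares with many other cells, read 8.96, 11.74, 9.97 and 10.27 in ko, against 13.49, 13.66, 13.59 and 13.45 in wt. All ko arrays were lower, with ko replicate 2 the nearest to wt. Its difference was -3.31 ± 0.38 (adjusted p = 9.27e-08), and -3.81 without that array. Pde6a, the other catalytic subunit, read 7.39, 7.18, 7.70 and 8.07 in ko, against 8.78, 8.60, 8.50 and 9.28 in wt, a difference of -1.21 ± 0.18 (adjusted p = 1.19e-05). Without ko replicate 2 the differences were -5.19 for Slc24a1, -4.60 for Pde6b, -4.09 for Cnga1, -3.39 for Cngb1 and -1.07 for Pde6a, with an adjusted p of up to 0.000166.

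The other 3 rod members were not called. Sag, the rod arrestin, averaged 13.15 ± 0.26 in ko and 13.39 ± 0.10 in wt (SD, n = 4 each), with a difference of -0.24 ± 0.45 (adjusted p = 1.00). Gngt1, the gamma subunit of rod transducin, averaged 13.04 ± 0.24 in ko and 13.18 ± 0.12 in wt (-0.14 ± 0.25, adjusted p = 1.00). For both, ko and wt arrays overlapped. Another probe set of Gngt1, much dimmer and not tested, read 5.67, 5.06, 5.93 and 5.52 in ko, against 7.85, 6.58, 7.41 and 6.80 in wt. Pde6g, the inhibitory subunit of the phosphodiesterase, averaged 11.29 ± 0.36 in ko and 11.97 ± 0.14 in wt (-0.68 ± 0.39, adjusted p = 0.596), and all its ko arrays lay below wt.

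Cone phototransduction genes moved the other way. Of 11 measured cone members, 10 were called higher and 0 lower with and without ko replicate 2, and the median difference was 2.86 (without it 2.92). Opn1sw, the short-wavelength cone opsin, read 12.92, 13.13, 13.09 and 13.22 in ko, against 10.64, 7.98, 8.43 and 10.06 in wt. Every ko array was above every wt array, and wt replicates 1 and 4 stood above wt replicates 2 and 3. Opn1sw was 14.1-fold higher in ko (3.82 ± 0.51, adjusted p = 2.35e-06).

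Gnat2, the alpha subunit of cone transducin, read 13.31, 12.72, 13.24 and 13.28 in ko, against 10.36, 8.10, 8.51 and 9.99 in wt. It was 14.9-fold higher (3.89 ± 0.38, adjusted p = 4.55e-09), and the wt arrays fell into the same order as for Opn1sw. Pde6c, the catalytic subunit of the cone phosphodiesterase, read 13.05, 12.57, 12.87 and 12.99 in ko, against 11.06, 8.39, 8.43 and 9.89 in wt. Pde6h, its inhibitory subunit, read 12.90, 12.55, 13.16 and 13.09 in ko, against 10.42, 8.54, 8.68 and 9.84 in wt. The ko arrays of both lay close together above wt, with differences of 3.43 ± 0.42 for Pde6c (adjusted p = 4.45e-07) and 3.56 ± 0.37 for Pde6h (adjusted p = 1.34e-08).

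Cngb3, the beta subunit of the cone channel, read 10.42, 9.92, 10.82 and 10.42 in ko, against 6.50, 6.03, 5.96 and 6.17 in wt. Here the wt arrays lay close together, and Cngb3 was at least 18.8-fold higher in ko (4.23 ± 0.33, adjusted p = 4.04e-11). Arr3, the cone arrestin, read 12.84, 12.75, 13.16 and 13.02 in ko, against 10.92, 9.26, 9.37 and 10.80 in wt (2.86 ± 0.37, adjusted p = 1.26e-06). Gnb3, the cone transducin beta subunit, read 12.34, 11.94, 12.72 and 12.49 in ko, against 10.46, 9.38, 9.54 and 10.22 in wt (2.48 ± 0.34, adjusted p = 3.18e-06). In both genes wt replicates 1 and 4 were again the high wt arrays. Without ko replicate 2 the differences were 3.80 for Opn1sw, 4.03 for Gnat2, 3.53 for Pde6c, 3.68 for Pde6h and 4.39 for Cngb3, with an adjusted p of up to 1.52e-05.

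Opn1mw, the medium-wavelength opsin, read 8.77, 8.29, 8.84 and 8.55 in ko, against 7.87, 6.42, 6.58 and 7.30 in wt, at least 2.98-fold higher (1.57 ± 0.22, adjusted p = 4.12e-06). Gngt2, the cone transducin gamma subunit, differed by 1.36 ± 0.17 (adjusted p = 7.81e-07), and the exchanger Slc24a4 by 0.78 ± 0.13 (adjusted p = 7.97e-05). Slc24a2, the other exchanger, was not called (0.30 ± 0.16, adjusted p = 0.532). Its second probe set, not used in the fit, read 9.01, 6.82, 9.50 and 8.20 in ko, against 7.07, 5.82, 6.11 and 6.62 in wt, so the probe sets of Slc24a2 disagreed in size. Over the cone list, wt replicates 1 and 4 both exceeded wt replicates 2 and 3 in 9 of 11 genes, and the part of this in the genotype differences was not tested.

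**Figure D2:**
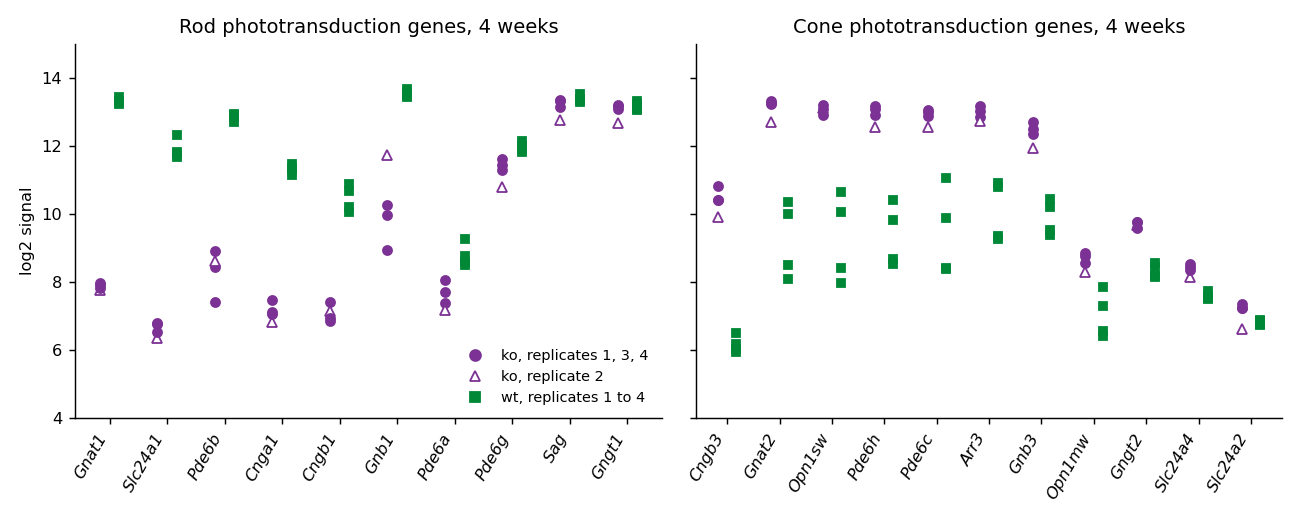
Signal (log2) of each measured rod gene (left panel) and cone gene (right panel) in the single arrays at 4 weeks, with ko (purple circles, open triangle for replicate 2) to the left of wt (green squares). From Gnat1 to Cngb1 the rod genes show wide gaps below wt, Sag and Gngt1 overlap, and the cone genes from Cngb3 to Gnb3 lie above wt, whose arrays lie close together for Cngb3 and are spread into pairs for the other genes of this range.

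Of 8 pairs of a rod and a cone version of the same step, 5 had the rod version lower, 7 had the cone version higher and 4 had both. The 4 pairs were Gnat1 and Gnat2, Gnb1 and Gnb3, Pde6b and Pde6c, and Cngb1 and Cngb3. For arrestin, Arr3 rose while Sag was not called. For transducin gamma, Gngt2 rose while Gngt1 was not called, and for the inhibitory phosphodiesterase subunit, Pde6h rose while Pde6g was not called.

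The promoters of 6 of these genes are shown because their transcripts moved most among the members with an entry, 3 rod genes that fell and 3 cone genes that rose. Each runs 250 bases before to 50 after the gene's start in RefSeq on GRCm38.p6, read on the gene's own strand. Capitals mark TAATCC, the core motif bound by the photoreceptor factor CRX, and TGCTGA, the core of the motif bound by NRL, both searched on both strands, with GGATTA and TCAGCA as their reverse forms. The motifs did not overlap in these windows.
Slc24a1 (chr9:64951571-64951870, minus strand): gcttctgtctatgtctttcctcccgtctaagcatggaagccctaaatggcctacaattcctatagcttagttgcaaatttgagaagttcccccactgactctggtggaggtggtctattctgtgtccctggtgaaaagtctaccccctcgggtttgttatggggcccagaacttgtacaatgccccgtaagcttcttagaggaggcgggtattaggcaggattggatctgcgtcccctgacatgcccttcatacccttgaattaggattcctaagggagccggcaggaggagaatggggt
Pde6b (chr5:108388123-108388422, plus strand): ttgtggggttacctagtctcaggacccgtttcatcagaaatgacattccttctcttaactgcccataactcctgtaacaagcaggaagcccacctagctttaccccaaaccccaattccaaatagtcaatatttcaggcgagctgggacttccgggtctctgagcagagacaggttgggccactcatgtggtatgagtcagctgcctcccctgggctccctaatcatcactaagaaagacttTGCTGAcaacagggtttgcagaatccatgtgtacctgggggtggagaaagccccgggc
Cnga1 (chr5:72642703-72643002, minus strand): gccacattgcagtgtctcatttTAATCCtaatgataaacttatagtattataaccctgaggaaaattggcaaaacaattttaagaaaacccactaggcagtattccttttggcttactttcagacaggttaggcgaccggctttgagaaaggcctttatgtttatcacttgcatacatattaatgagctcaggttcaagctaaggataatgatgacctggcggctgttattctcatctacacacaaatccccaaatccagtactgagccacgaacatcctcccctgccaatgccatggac
Gnat2 (chr3:108092816-108093115, plus strand): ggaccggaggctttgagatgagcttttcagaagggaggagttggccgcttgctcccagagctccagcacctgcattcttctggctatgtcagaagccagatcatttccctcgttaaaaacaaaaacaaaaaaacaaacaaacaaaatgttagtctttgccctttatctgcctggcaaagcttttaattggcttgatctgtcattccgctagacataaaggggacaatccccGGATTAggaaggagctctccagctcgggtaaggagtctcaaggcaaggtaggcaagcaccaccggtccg
Opn1sw (chr6:29380464-29380763, minus strand): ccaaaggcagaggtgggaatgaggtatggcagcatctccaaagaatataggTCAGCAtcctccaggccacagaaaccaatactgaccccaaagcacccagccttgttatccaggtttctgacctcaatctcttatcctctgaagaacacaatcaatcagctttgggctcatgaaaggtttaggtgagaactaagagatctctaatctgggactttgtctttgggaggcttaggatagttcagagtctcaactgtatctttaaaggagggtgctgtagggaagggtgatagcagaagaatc
Pde6h (chr6:136954273-136954572, plus strand): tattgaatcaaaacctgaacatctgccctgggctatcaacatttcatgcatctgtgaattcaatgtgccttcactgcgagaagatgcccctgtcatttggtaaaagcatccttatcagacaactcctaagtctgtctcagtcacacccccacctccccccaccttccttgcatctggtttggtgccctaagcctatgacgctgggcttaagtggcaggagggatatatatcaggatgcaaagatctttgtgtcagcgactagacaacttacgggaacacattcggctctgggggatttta
Pde6b held the NRL motif 8 bases before the start and Cnga1 the CRX motif 228 bases before it. Gnat2 held the CRX motif 19 bases before the start and Opn1sw the NRL motif 199 bases before it, both on the other strand. In the windows of Slc24a1 and Pde6h neither motif was found. Among all 32851 promoters, 7.06% held the CRX motif and 19.5% the NRL motif. Counted per gene, the shares were 7.29% and 20.3% among the 14452 tested genes with an entry. Counted in the same way, they were 8.11% and 18.9% among 296 genes called higher in ko, and 9.89% and 19.0% among 374 genes called lower. These matches describe letters only.

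Genes that rods and cones share were mostly not called. Of 13 measured members of this list, 1 was called lower and 0 higher with and without ko replicate 2, with a median difference of -0.16. The called gene was Guca1b, a calcium sensor that activates guanylate cyclase, which read 9.32, 8.42, 9.56 and 10.41 in ko, against 12.71, 12.62, 12.51 and 12.40 in wt. Its ko arrays were spread and all below wt, and it was 8.78-fold lower (-3.13 ± 0.39, adjusted p = 5.17e-07). Its relative Guca1a averaged 12.57 ± 0.37 in ko and 12.18 ± 0.26 in wt and was not called (0.39 ± 0.41, adjusted p = 0.99). Rgs9bp, which anchors the complex that shuts off transducin, differed by -1.13 ± 0.36 (adjusted p = 0.0715), and Gnb5, part of that complex, by -0.99 ± 0.37 (adjusted p = 0.158). The differences of the other 9 members lay between those of Rcvrn, the calcium sensor recoverin (-0.67 ± 0.38, adjusted p = 0.585), and Rd3, an inhibitor of guanylate cyclase (0.92 ± 0.33, adjusted p = 0.134). Another probe set of Rgs9, not tested, averaged 7.65 in ko and 9.03 in wt (-1.38).

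Among 20 measured regulators of photoreceptor fate, 3 were called higher and 3 lower in both fits, and the median difference was 0.01. Besides Nrl, Esrrb and Samd7 were called lower. Esrrb, a nuclear receptor of rods, read 6.65, 6.36, 6.40 and 6.46 in ko, against 8.16, 8.16, 7.88 and 7.49 in wt. The groups did not overlap, and it was at least 2.74-fold lower (-1.46 ± 0.16, adjusted p = 6.35e-08). The probe sets of Esrrb disagreed in size. Another, not tested, averaged 6.43 in ko and 9.79 in wt (-3.36), and a further one 6.44 in ko and 6.51 in wt (-0.08). Samd7, a repressor of non-rod genes, averaged 10.17 ± 0.31 in ko and 11.36 ± 0.21 in wt (-1.19 ± 0.31, adjusted p = 0.0144). This call was lost without ko replicate 1, without ko replicate 3 and without wt replicate 3, with an adjusted p of up to 0.0632. Mef2c, also on this list, was not called in its fitted probe set (-1.25). Its other probe sets, not tested, differed by -0.46 to -3.14. The last of these read 7.25, 6.97, 7.16 and 7.58 in ko, against 10.27, 10.33, 10.69 and 10.25 in wt.

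Prdm1, a repressor that keeps photoreceptor precursors from becoming bipolar cells, read 10.15, 10.66, 10.54 and 10.28 in ko, against 8.76, 8.61, 8.70 and 8.93 in wt. Its groups were tight and apart, and it was 3.16-fold higher (1.66 ± 0.15, adjusted p = 4.26e-10). Rxrg, a nuclear receptor of cones, read 8.16, 7.91, 8.45 and 8.33 in ko, against 7.20, 7.45, 7.39 and 7.59 in wt (0.81 ± 0.17, adjusted p = 0.00175). Sall3, a zinc finger factor of cones, read 6.71, 6.56, 7.72 and 6.38 in ko, against 5.79, 5.65, 5.58 and 5.42 in wt (1.23 ± 0.31, adjusted p = 0.0123). Ko replicate 3 was the highest array of Sall3, and without it the gene was no longer called (adjusted p = 0.103). All arrays of Sall3 lay under 8.0. Its other probe set, not tested, averaged 6.30 in ko and 6.22 in wt (0.08). Crx, the factor that rods and cones share, averaged 11.95 ± 0.27 in ko and 12.10 ± 0.05 in wt and was not called (-0.14 ± 0.29, adjusted p = 1.00). Neurod1 differed by 0.00 ± 0.11, Otx2 by 0.49 ± 0.32, and Thrb, the thyroid hormone receptor of medium-wavelength cones, by 0.01 ± 0.11, and none was called (adjusted p from 0.723 to 1.00). The probe set of Thrb averaged 5.78 in ko and 5.77 in wt, far under 8.0. Its small difference therefore does not show whether Thrb changed.

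In the visual cycle, which restores retinal to its light-sensitive form, 1 of 12 measured genes was called higher and 2 lower in both fits. Over all genes, 4.73% were called. Dhrs3, a retinal reductase, read 7.11, 6.59, 7.19 and 7.08 in ko, against 10.54, 10.34, 10.71 and 10.43 in wt. It was at least 11.4-fold lower with no overlap (-3.51 ± 0.31, adjusted p = 5.56e-10). Rdh12, a retinol dehydrogenase of the inner segment, averaged 9.77 ± 0.57 in ko and 11.50 ± 0.23 in wt (-1.73 ± 0.35, adjusted p = 0.00136). Rbp3, the retinoid carrier of the space around the outer segments, averaged 13.11 ± 0.18 in ko and 12.52 ± 0.23 in wt (0.59 ± 0.13, adjusted p = 0.00288), but the mean over its probe sets gave -0.49.

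Outer segment structure genes held 4 lower and 1 higher call among 13 measured, and 3 lower and 1 higher without ko replicate 2. The share called over all genes was 4.73%, and 4.13% without that array. Reep6, a membrane protein of the endoplasmic reticulum needed by rods, read 7.62, 7.55, 7.87 and 7.42 in ko, against 12.38, 11.71, 11.33 and 11.49 in wt. It was at least 17.4-fold lower (-4.12 ± 0.27, adjusted p = 9.00e-13), and the ko arrays were closer together than the wt arrays. Nxnl1, the gene of a cone survival factor made by rods, read 9.97, 9.45, 9.97 and 9.94 in ko, against 11.57, 11.19, 11.06 and 11.33 in wt (-1.46 ± 0.22, adjusted p = 1.39e-05). Fscn2, an actin bundling protein, differed by -1.13 ± 0.16 (adjusted p = 3.32e-06), and Cdhr1, a cadherin at the base of the discs, by 0.49 ± 0.12 (adjusted p = 0.00799). Cdhr1 was not called without ko replicate 1 (adjusted p = 0.0513). Rp1, which binds the microtubules of the axoneme, averaged 11.04 ± 0.44 in ko and 12.36 ± 0.24 in wt, and its call (-1.31, adjusted p = 0.015) was lost without ko replicate 2 (-1.14, adjusted p = 0.0793).

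Of 26 measured genes of the cilium and of transport along it, 3 were called lower and 0 higher, and 1 was called lower without ko replicate 2. Over all genes, 4.73% were called with all arrays and 4.13% without that array. The gene called in both fits was Bbs7, a subunit of the BBSome cargo complex, which read 8.26, 8.62, 9.50 and 9.01 in ko, against 10.32, 9.98, 10.30 and 10.68 in wt. The groups did not overlap (-1.47 ± 0.37, adjusted p = 0.0112), but Bbs7 was not called without ko replicate 1 (adjusted p = 0.0654). Bbs9 (-0.77, adjusted p = 0.0301) and Ift88 (-0.37, adjusted p = 0.033) were called only with ko replicate 2, and their adjusted p without it was 0.11 and 0.0883.

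Ribbon synapse genes held 4 higher and 2 lower calls among 24 measured, and 4 higher and 1 lower without ko replicate 2. The share called over all genes was 4.73%, and 4.13% without that array. Slc17a7, the vesicular glutamate transporter, averaged 10.63 ± 0.48 in ko and 8.90 ± 0.55 in wt (SD, n = 4 each). It was 3.32-fold higher with no overlap (1.73 ± 0.35, adjusted p = 0.000999). Cplx3, a complexin of ribbon synapses, read 10.35, 9.94, 10.23 and 10.20 in ko, against 9.65, 7.89, 7.83 and 9.12 in wt (1.55 ± 0.29, adjusted p = 0.000329). Wt replicates 1 and 4 were again the high wt arrays. Syp, a synaptic vesicle protein, differed by 0.85 ± 0.18 (adjusted p = 0.00235) and Syt1, a calcium sensor of vesicle release, by 0.84 ± 0.20 (adjusted p = 0.00657). Cacnb2, a calcium channel subunit of the rod terminal, was called lower (-0.90 ± 0.18, adjusted p = 0.000894). Cabp4, a regulator of that channel, was called only with ko replicate 2 (-0.74, adjusted p = 0.0439, without it 0.214). In this list, wt replicates 1 and 4 both exceeded wt replicates 2 and 3 in 18 of 24 genes.

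Of 9 measured channels and pumps, 2 were called higher and 1 lower in both fits, against 4.73% called over all genes. Kcne2, a potassium channel subunit, read 13.06, 12.09, 12.80 and 12.60 in ko, against 10.54, 8.0, 8.26 and 10.07 in wt, and was 10.7-fold higher (3.42 ± 0.43, adjusted p = 5.32e-07). Kcnj14, an inward rectifier potassium channel, read 6.55, 6.09, 6.33 and 6.39 in ko, against 10.62, 10.77, 10.88 and 10.87 in wt. The arrays of each group lay close together, and it was at least 21.8-fold lower (-4.44 ± 0.23, adjusted p = 2.09e-15). Atp1b2, a sodium pump subunit, differed by 0.73 ± 0.21 (adjusted p = 0.0331), a call that was lost in 6 of the 8 fits that left out 1 array.

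Genes of lipid and fatty acid metabolism held 5 higher and 0 lower calls among 19 measured in both fits. Over all genes, 4.73% were called. The list median was 0.06. Fabp7, a fatty acid-binding protein of glia and neural precursors, read 10.98, 11.85, 11.28 and 11.41 in ko, against 6.39, 5.96, 6.95 and 6.39 in wt. It was at least 31.1-fold higher (4.96 ± 0.34, adjusted p = 2.46e-12), and without ko replicate 2, its highest array, at least 27.9-fold. Gpat3, which starts the making of glycerolipids, read 11.55, 10.80, 11.89 and 11.90 in ko, against 8.48, 7.35, 7.20 and 7.93 in wt (3.79 ± 0.36, adjusted p = 2.03e-09). Elovl5, a fatty acid elongase, read 11.84, 11.91, 12.03 and 11.99 in ko, against 9.45, 6.79, 7.77 and 8.94 in wt (3.71 ± 0.55, adjusted p = 1.12e-05). For both genes the ko arrays were above all wt arrays. The elongases Elovl6 (2.67 ± 0.42, adjusted p = 3.13e-05) and Elovl2 (1.49 ± 0.30, adjusted p = 0.001) were higher as well.

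Glycolysis and lactate genes held 2 higher and 2 lower calls among 19 measured, with 1 higher call without ko replicate 2. The share called over all genes was 4.73%, and 4.13% without that array. Pfkp, the platelet form of phosphofructokinase, read 9.17, 9.78, 9.14 and 8.80 in ko, against 11.81, 10.98, 10.99 and 11.20 in wt. It was 4.06-fold lower (-2.02 ± 0.31, adjusted p = 2.72e-05). Aldoc, the aldolase of neural tissue, averaged 7.14 ± 0.29 in ko and 8.81 ± 0.59 in wt (-1.67 ± 0.29, adjusted p = 0.000123). Pfkm, the muscle form of phosphofructokinase, differed by 0.38 ± 0.11 (adjusted p = 0.0366) and lost its call in 6 of 8 fits without 1 array. Ckb, the brain creatine kinase, averaged 10.55 ± 0.33 in ko and 9.09 ± 0.86 in wt (1.46, adjusted p = 0.0258, without ko replicate 2 adjusted p = 0.0891). Of 20 measured genes of oxidative phosphorylation, 1 was called, near the 4.73% called over all genes. It was Cox7a2, a subunit of cytochrome oxidase (0.57 ± 0.11, adjusted p = 0.000717).

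Among 14 measured genes of retinal stress, 1 was called higher, against 4.73% called over all genes. The called gene was Socs3, the feedback inhibitor of cytokine signalling. It read 9.73, 9.13, 9.44 and 9.36 in ko, against 6.88, 5.97, 5.57 and 5.96 in wt, at least 10-fold higher with no overlap (3.32 ± 0.37, adjusted p = 7.03e-08). Of 17 immediate-early genes, 3 were called higher, and 2 without ko replicate 2. Egr1 read 12.72, 12.51, 12.63 and 12.51 in ko, against 10.37, 11.16, 11.39 and 10.57 in wt (1.72 ± 0.42, adjusted p = 0.00951), and Nr4a1 differed by 0.98 ± 0.16 (adjusted p = 4.00e-05). Jun read 10.38, 11.88, 10.37 and 10.24 in ko, against 9.67, 9.05, 9.55 and 9.69 in wt. Ko replicate 2 was its single high array, and without it Jun was not called (0.84, adjusted p = 0.0795).

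The other pathway lists held 0 or 1 call each, read against the 4.73% called over all genes. Of 18 clock genes, 1 was called, Per3, which fell by 0.68 ± 0.15 on the log2 scale (adjusted p = 0.00393). Of 23 genes of BMP and Wnt signalling, 1 was called, Lrp4, a receptor of the LDL family. Lrp4 read 7.08, 10.40, 6.83 and 6.65 in ko, against 10.10, 9.91, 10.34 and 10.51 in wt. Ko replicate 2 lay within the range of wt while the other ko arrays lay far below, so the difference of -2.48 ± 0.52 (adjusted p = 0.00162) became -3.36 without it (adjusted p = 1.04e-07). Of 12 genes of nuclear architecture, 0 were called by limma in either fit, and an unadjusted p under 0.05 was reached by 0 with all arrays and by 1 without ko replicate 2. Over all 18193 genes, 2116 reached an unadjusted p under 0.05 with all arrays and 2007 without ko replicate 2.

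Outside these lists, the genes with the largest differences were taken among those called in both fits. Clca1, a relative of the regulators of calcium-activated chloride channels, read 10.82, 10.06, 11.11 and 10.88 in ko, against 6.20, 5.56, 5.61 and 5.64 in wt. It was higher by at least 31.3-fold (4.97 ± 0.24, adjusted p = 4.73e-16), with no overlap. Wwc1, a scaffold of the Hippo pathway, read 10.66, 10.26, 11.12 and 10.71 in ko, against 7.33, 6.54, 6.68 and 6.98 in wt (3.80 ± 0.34, adjusted p = 5.72e-10). Cckbr, a receptor of cholecystokinin and gastrin, read 9.80, 8.96, 10.45 and 9.53 in ko, against 6.60, 6.05, 6.04 and 6.09 in wt (3.49 ± 0.31, adjusted p = 5.02e-10). For all 3 genes the ko arrays lay above all wt arrays, and without ko replicate 2 the difference was 5.19 for Clca1 and 3.73 for Cckbr. Their other probe sets, dimmer and not tested, gave smaller differences, 0.36 for Clca1, 0.58 for Cckbr and 0.21 to 1.88 for Wwc1.

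Tafa3, a small secreted protein, read 12.65, 11.96, 12.85 and 12.57 in ko, against 9.49, 7.74, 7.97 and 9.24 in wt (3.90 ± 0.36, adjusted p = 1.42e-09). Ampd2, an AMP deaminase, read 11.09, 11.11, 11.06 and 11.18 in ko, against 9.65, 5.40, 6.07 and 7.99 in wt (3.83 ± 0.66, adjusted p = 0.000124). Both had wt replicates 1 and 4 above the other wt arrays, and for Ampd2 the wt arrays spread far more than the ko arrays. Another probe set of Ampd2, not tested, averaged 8.98 in ko and 7.99 in wt, a smaller difference of 0.99. Klf3, a Kruppel-like repressor, read 8.87, 10.12, 9.72 and 9.84 in ko, against 6.72, 5.57, 5.71 and 6.37 in wt (3.54 ± 0.61, adjusted p = 0.000119). The other probe sets of Klf3, not tested and averaging under 8.0 in both groups, differed by only 0.11 to 0.43. Rtl8c, a gene derived from a retrotransposon, averaged 10.10 ± 0.30 in ko and 6.28 ± 0.79 in wt (3.82 ± 0.77, adjusted p = 0.00113).

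Some further genes were named after their values were seen. Camk2b, a calcium-dependent kinase, read 10.08, 9.79, 11.36 and 10.59 in ko, against 8.09, 6.23, 6.52 and 7.77 in wt (3.30 ± 0.61, adjusted p = 0.000356). En2, a homeobox factor of the midbrain and hindbrain, read 7.10, 7.99, 8.88 and 9.72 in ko, against 5.26, 5.31, 5.20 and 5.29 in wt. The ko arrays of En2 were widely spread while the wt arrays lay close together, and it was at least 8.92-fold higher (3.16 ± 0.30, adjusted p = 2.84e-09). Eya1, a transcriptional coactivator of eye and ear development, read 9.13, 9.77, 10.28 and 10.38 in ko, against 6.38, 7.28, 7.03 and 7.25 in wt (2.91 ± 0.24, adjusted p = 9.38e-11). Notch2, a receptor of the Notch pathway, averaged 11.55 ± 0.29 in ko and 9.07 ± 0.44 in wt (2.48 ± 0.34, adjusted p = 3.32e-06).

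Among the largest decreases, Slc22a29, a member of the organic anion transporter family, read 6.41, 5.67, 6.07 and 6.34 in ko, against 10.46, 10.88, 11.11 and 10.78 in wt. It was at least 25.8-fold lower with tight groups (-4.69 ± 0.23, adjusted p = 4.80e-16). Vax2os, a noncoding transcript from the strand opposite Vax2, read 5.57, 5.86, 5.38 and 5.60 in ko, against 11.05, 9.58, 9.86 and 9.81 in wt (-4.47 ± 0.36, adjusted p = 8.37e-11). Abca13, an ABC transporter, read 5.13, 5.0, 4.95 and 5.01 in ko, against 9.36, 8.84, 9.16 and 8.93 in wt (-4.05 ± 0.24, adjusted p = 1.00e-13). The ko arrays of these genes lay under 8.0 throughout. Probe sets of the class used for Slc22a29, Ampd2, Esrrb and Socs3 can also bind transcripts of similar sequence, and the part of this was not tested.

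Cep164, a protein of the appendages that anchor the basal body, read 7.01, 7.87, 8.81 and 7.38 in ko, against 11.22, 10.99, 11.54 and 11.24 in wt (-3.47 ± 0.43, adjusted p = 5.72e-07). Samd11, a partner of Polycomb repressors in photoreceptors, read 7.89, 9.37, 8.02 and 7.81 in ko, against 11.90, 11.62, 11.43 and 11.63 in wt. Ko replicate 2 was the high ko array, and the difference was -3.37 ± 0.31 with it (adjusted p = 8.82e-10) and -3.74 without it. Spata1 averaged 6.26 ± 0.16 in ko and 9.70 ± 0.59 in wt (-3.44 ± 0.44, adjusted p = 8.89e-07).

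**Figure D3:**
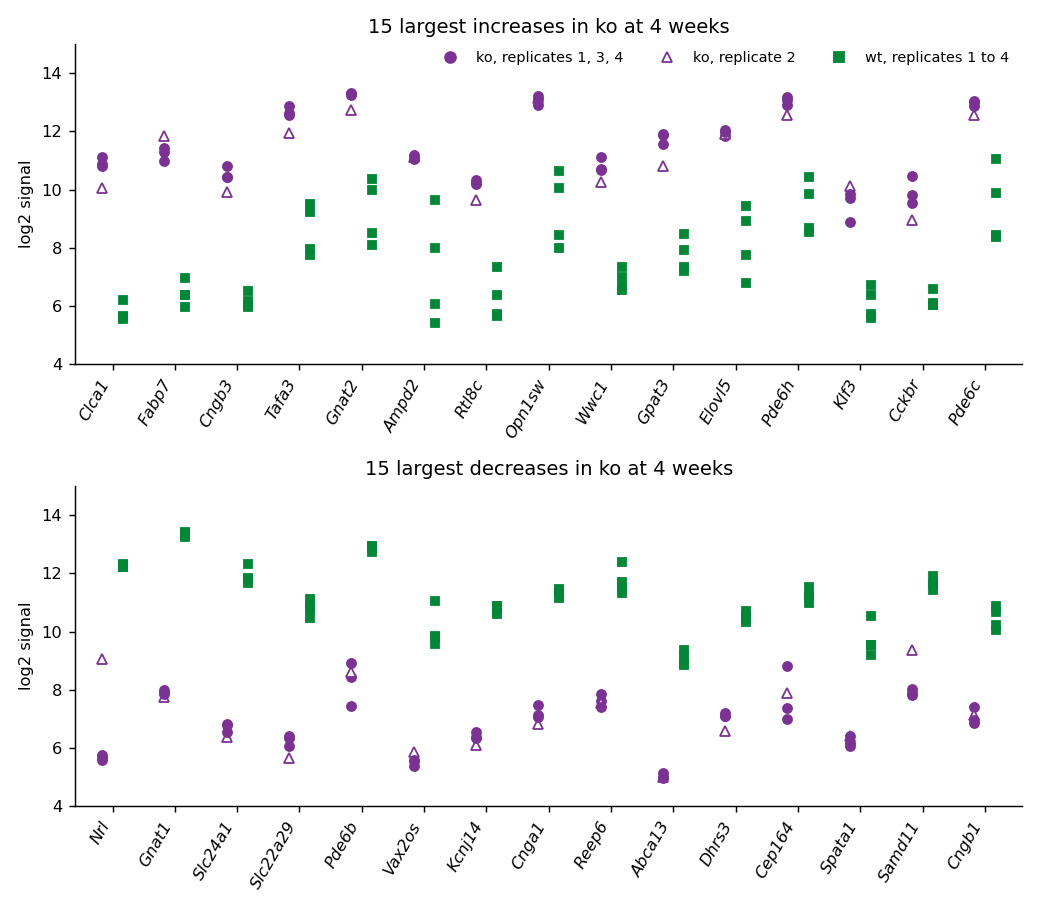
Signal (log2) in the single arrays at 4 weeks of the 15 genes with the largest increase (top) and the 15 with the largest decrease (bottom), with ko (purple, open triangle for replicate 2) to the left of wt (green squares). No gene's ko replicates 1, 3 and 4 overlap the wt arrays, which also was a condition for being shown, and ko replicate 2 stands apart from the other ko arrays for Nrl and Samd11.

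Marker lists of other retinal cells were counted in the same way, against the 4.73% called over all genes. Of 14 measured bipolar cell genes, 2 were called higher and 1 lower in both fits, and 4 of the 14 averaged above 8.0 in ko and 4 in wt. Lhx4, a homeobox factor listed here for bipolar cells, averaged 11.40 ± 0.36 in ko and 9.53 ± 0.73 in wt (SD, n = 4 each), with no overlap (1.87 ± 0.28, adjusted p = 1.38e-05). Cabp5, a calcium-binding protein, averaged 8.14 ± 0.41 in ko and 7.17 ± 0.13 in wt (0.97 ± 0.17, adjusted p = 0.000167). Prkca, protein kinase C alpha of rod bipolar cells, read 7.97, 8.02, 8.38 and 8.16 in ko, against 10.17, 9.70, 10.03 and 10.05 in wt. Its groups did not overlap (-1.85 ± 0.25, adjusted p = 2.98e-06), in the direction opposite to Lhx4 and Cabp5.

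Of 11 Muller glia genes, 1 was called lower in both fits, the water channel Aqp4 (-1.35 ± 0.20, adjusted p = 8.03e-06), which averaged 6.29 ± 0.07 in ko and 7.63 ± 0.33 in wt. Of 11 pigment epithelium genes, Mitf was called lower (-0.86 ± 0.20, adjusted p = 0.00457), and Ttr was called higher only without ko replicate 2 (0.79, adjusted p = 0.012). Of 12 genes of microglia and leukocytes, Tyrobp was called higher only with ko replicate 2 (0.48, adjusted p = 0.0434), and of 7 lens genes Cryab was called lower only with it (-1.65, adjusted p = 0.0237). Counts at an unadjusted p under 0.05 are read against 2116 of all 18193 genes with all arrays and 2007 without ko replicate 2. An unadjusted p under 0.05 was reached by 5 of the 12 microglia and leukocyte genes, all higher in ko, and by 3 without ko replicate 2. Among the pigment epithelium genes it was reached by 3 higher and 1 lower, with and without that array. Of 11 genes of endothelium and pericytes and 10 ganglion cell genes, 0 were called by limma in either fit, while 1 gene of each list had an unadjusted p under 0.05 with all arrays. Over the microglia list the array means lay between 6.58 and 6.89 in ko and between 6.35 and 6.47 in wt, and over the endothelium list between 6.36 and 6.64 in ko and between 6.38 and 6.48 in wt. Of 4 measured sex-linked genes, 0 were called by limma and 0 had an unadjusted p under 0.05. The part of these lists in the genotype differences was not tested.

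Of 14 measured markers of amacrine and horizontal cells, 0 were called by limma with all arrays, where 2 had an unadjusted p under 0.05, both lower. Without ko replicate 2, 1 was called and 5 had an unadjusted p under 0.05, all lower. Over all 18193 genes, 2116 had an unadjusted p under 0.05 with all arrays and 2007 without ko replicate 2. The mean of the 14 markers was 7.06, 8.10, 6.65 and 6.81 in ko, against 8.18, 6.93, 7.0 and 7.94 in wt. Ko replicate 2 and wt replicates 1 and 4 were the high arrays. Gad2, which makes the transmitter GABA, read 6.10, 8.96, 5.34 and 5.85 in ko, against 9.43, 6.29, 6.39 and 8.14 in wt. It was called lower only without ko replicate 2 (-1.80, adjusted p = 0.0431), and with it the difference was -1.0 (adjusted p = 0.626). The wt arrays with high Gad2 were the arrays with high Opn1sw.

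Ko replicate 2 stood apart in the lists of dividing and immature cells. The mean over 23 cell cycle genes was 7.29, 8.94, 7.26 and 7.27 in ko, against 7.22, 7.41, 7.42 and 7.32 in wt. Over 16 genes of immature neurons it was 7.61, 9.76, 7.68 and 7.79 in ko, against 7.95, 7.61, 7.76 and 7.97 in wt, and over 12 retinal progenitor genes 7.36, 9.29, 7.22 and 7.19 in ko, against 7.59, 7.18, 7.17 and 7.28 in wt. In all 3 lists the other ko arrays lay close to the wt arrays. Called in both fits were Dll1, a Notch ligand (0.54 ± 0.14, adjusted p = 0.0127), and Six6, a homeobox factor of the eye field, which read 8.42, 8.92, 8.87 and 8.65 in ko, against 7.10, 7.17, 7.04 and 6.77 in wt (1.70 ± 0.27, adjusted p = 3.07e-05). Dll1 was not called without ko replicate 3 or without wt replicate 1 (adjusted p up to 0.108).

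In some other genes the same array lay near wt and away from the other ko arrays. Ccna2, a cyclin, read 7.72, 10.56, 7.99 and 8.03 in ko, against 10.43, 10.11, 10.19 and 10.01 in wt. It was not called with all arrays (-1.61, adjusted p = 0.0557) and was called lower without ko replicate 2 (-2.27, adjusted p = 0.000831). Grb10, an adaptor of growth factor receptors, read 7.73, 11.92, 8.47 and 8.60 in ko, against 11.55, 11.73, 11.87 and 11.51 in wt, with -2.49 over all arrays (adjusted p = 0.00106) and -3.40 without ko replicate 2 (adjusted p = 7.19e-09). Zfp36l2, which speeds the decay of messenger RNAs, read 7.61, 11.04, 8.21 and 8.49 in ko, against 11.31, 11.41, 11.73 and 11.71 in wt. Its difference of -2.70 (adjusted p = 0.00373) became -3.44 without ko replicate 2 (adjusted p = 7.97e-05).

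**Figure D4:**
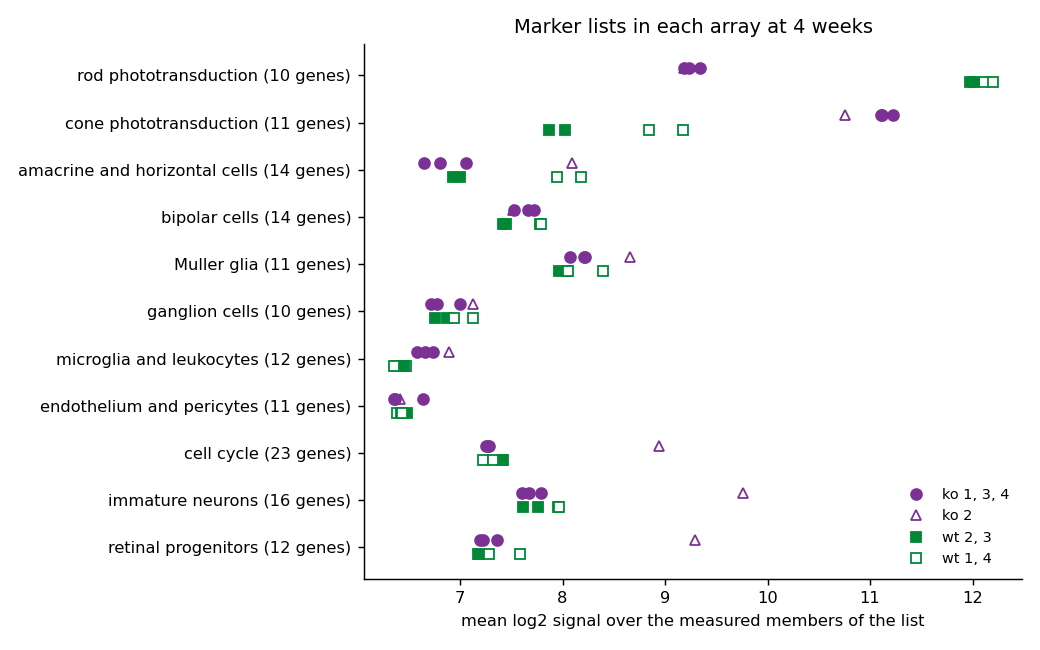
Mean signal (log2, x axis) over the measured members of each marker list in each array at 4 weeks, with ko (purple, open triangle for replicate 2) above wt (green squares, open for replicates 1 and 4). Rod and cone lists separate the genotypes in opposite directions, ko replicate 2 lies apart at 8.94 for cell cycle and 9.76 for immature neurons, and wt replicates 1 and 4 lie above wt replicates 2 and 3 for cone and for amacrine and horizontal cell genes.

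Whether the genotype difference at 4 weeks differed from that at P10 was tested as the difference of the 2 differences. It was called for 176 genes (0.967%), and for 171 (0.94%) without ko replicate 2, 143 of them in both fits. With only the 16 arrays of both stages in the fit, 61 genes were called, 57 of them among the 176. Among the wt arrays at P10, replicate 3 stood nearer to the 4-week level, as in Guca1a (8.69, others 6.31 to 6.76), Kcnj14 (8.76, others 6.80 to 7.38) and Abca13 (7.58, others 5.41 to 5.74). Without wt P10 replicate 3, left out after the data were seen, 746 genes were called, with all 176 among them. Wt P10 replicates 1 and 2 were among the 5 arrays with the lowest spread of signal, and 223 genes were called without these 5 arrays and ko replicate 2. At P10 alone 512 genes (2.81%) were called. Of these, 228 were also called at 4 weeks, 44.5% of the calls at P10 and 26.5% of those at 4 weeks, and 225 of the 228 had the same sign. Of the 176 genes, 120 were called at 4 weeks and not at P10, 87 lower and 33 higher in ko. Another 25 were called at P10 and not at 4 weeks, 15 higher and 10 lower, and 22 were called at both stages, 18 of them with the same sign and a larger difference at 4 weeks.

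Slc22a29 and Arhgdib gave the smallest p of this test. Slc22a29 averaged 5.98 ± 0.10 in ko and 6.82 ± 0.56 in wt at P10, a difference of -0.84 against -4.69 at 4 weeks. The difference of differences was -3.84 ± 0.33 (adjusted p = 3.23e-09). Arhgdib read 8.98, 8.99, 9.90 and 9.43 in ko at 4 weeks, against 6.99, 6.47, 6.47 and 6.63 in wt. At P10 it averaged 6.92 ± 0.08 in ko and 6.53 ± 0.09 in wt, so its difference was 2.68 at 4 weeks and 0.39 at P10 (difference of differences 2.29 ± 0.18, adjusted p = 1.52e-09). In both genes the groups at 4 weeks did not overlap, and in ko only Arhgdib was higher at 4 weeks than at P10 by more than the spread of the arrays.

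The other 8 genes with the smallest p of this test were Kcnj14, Glb1l3, Abca13, Bst1, 2810030D12Rik, Lrrc2, A930009A15Rik and C4bp-ps1. For Kcnj14 the genotype difference was -1.14 at P10 and -4.44 at 4 weeks (difference of differences -3.30 ± 0.33, adjusted p = 1.14e-07). Bst1, an enzyme that makes cyclic ADP-ribose, read 5.42, 4.92, 4.95 and 5.02 in ko at 4 weeks, against 7.35, 8.22, 8.22 and 7.0 in wt, and its difference was -0.21 at P10 (-2.41 ± 0.27, adjusted p = 1.34e-06). Both stayed at a like level in ko at the 2 stages and were higher in wt at 4 weeks. Glb1l3, a relative of beta-galactosidase, differed by -0.21 at P10 and -2.41 at 4 weeks, and Lrrc2, a leucine-rich repeat protein, by -0.29 and -2.01. Abca13 differed by -0.89 at P10 and -4.05 at 4 weeks, 2810030D12Rik by -0.25 and -3.02, and C4bp-ps1 by -0.82 and -3.24. A930009A15Rik differed by 0.09 at P10 and 1.90 at 4 weeks, the same sign as Arhgdib.

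The calcium sensors Guca1a and Guca1b showed unlike patterns. Guca1a read 11.90, 12.45, 11.91 and 12.18 in ko at P10, against 6.76, 6.31, 8.69 and 6.67 in wt, a difference of 5.0 that was 0.39 at 4 weeks (difference of differences -4.61 ± 0.57, adjusted p = 5.72e-06). Its ko level was high at both stages, and its wt level was high at 4 weeks only. Guca1b read 8.72, 8.91, 8.59 and 8.63 in ko at P10, against 7.91, 7.86, 10.81 and 9.31 in wt. The groups overlapped at P10 and were apart at 4 weeks (difference of differences -2.87 ± 0.55, adjusted p = 0.00348), a call that was lost with only the arrays of both stages (adjusted p = 0.154).

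The comparison with P10 called several further phototransduction genes. Gnat1 averaged 7.93 ± 0.23 in ko and 11.64 ± 1.30 in wt at P10, and its difference went further by -1.75 ± 0.43 (adjusted p = 0.0362, without ko replicate 2 adjusted p = 0.0645). Slc24a1 averaged 6.89 ± 0.09 in ko and 9.49 ± 1.74 in wt at P10, and went further by -2.67 ± 0.58 (adjusted p = 0.0113). In both genes the ko level was about the same at the 2 stages, while wt was lower and more spread at P10. Without wt P10 replicate 3 the difference of differences was -2.11 for Gnat1 and -3.41 for Slc24a1. Opn1mw averaged 6.42 ± 0.10 in ko and 6.59 ± 0.61 in wt at P10, with a difference of -0.17 that was 1.57 at 4 weeks (1.74 ± 0.31, adjusted p = 0.00127). With only the arrays of both stages, the calls of Gnat1 (adjusted p = 0.368), Slc24a1 (0.269) and Opn1mw (0.142) were lost. The other cone genes called at 4 weeks were not called in this test, as for Opn1sw, whose difference was 5.05 at P10 and 3.82 at 4 weeks (-1.24, adjusted p = 0.62). Gnb5 differed in sign between the stages, with 1.07 at P10 and -0.99 at 4 weeks, neither called. Its difference of differences was called with all arrays (-2.07 ± 0.52, adjusted p = 0.0424) and not without ko replicate 2 (adjusted p = 0.0941) or with only the arrays of both stages (adjusted p = 0.215).

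Other genes of this kind belong to several pathways. Epas1, the hypoxia-inducible factor 2 alpha, read 8.15, 8.02, 8.07 and 8.33 in ko at 4 weeks, against 11.26, 11.34, 11.46 and 11.21 in wt, and its difference was -3.18 at 4 weeks and -0.62 at P10 (-2.56 ± 0.35, adjusted p = 2.85e-05). Prdm1 had a difference of 1.66 at 4 weeks and 0.35 at P10 (1.31 ± 0.21, adjusted p = 0.000225). At P10 it averaged 10.17 ± 0.06 in ko and 9.83 ± 0.11 in wt, so that ko held its level at 4 weeks while wt was lower. Sgk1, a serum-induced kinase, changed sign, with 1.14 at P10 and -1.21 at 4 weeks (-2.35 ± 0.31, adjusted p = 1.76e-05). Per3 did likewise, with 0.65 at P10 and -0.68 at 4 weeks (-1.32 ± 0.22, adjusted p = 0.000398). Epas1 and Sgk1 were named after their values were seen.

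**Figure D5:**
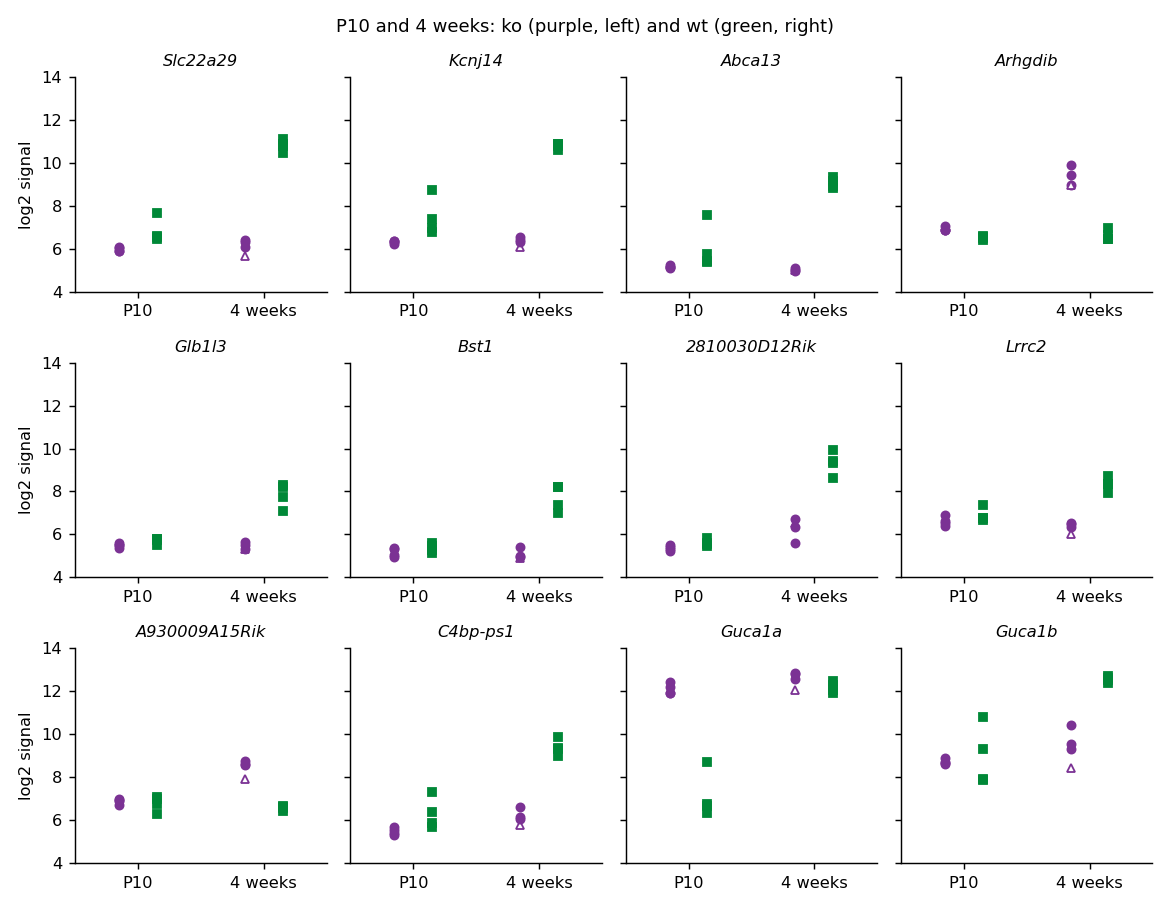
Signal (log2) in the single arrays at P10 (left in each panel) and 4 weeks (right), ko (purple, open triangle for ko replicate 2 at 4 weeks) to the left of wt (green squares), for the 10 genes with the smallest p of the difference between stages and for Guca1a and Guca1b. For 8 of the 10 genes wt at 4 weeks is the highest of the 4 groups, and for Arhgdib and A930009A15Rik ko at 4 weeks is.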

How the data were processed

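The measurements are Affymetrix array signals of GFP-sorted photoreceptors. Each signal is a log2 value as the authors deposited it. The submitters' processing notes name RMA, and its version and settings are not given in the sources used here. The log2 values ran between 4.03 and 14.5. Detection calls (present or absent for each stage, of unit other) were deposited too, of which the column labelled Ad was assigned to no group. They set the level of 8.0 and 1 alternative filter.

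Groups came from the titles. Of 45101 probe sets, 64 were controls, 34945 had 1 gene in the platform annotation, 932 several and 9160 no row. Each of 18193 genes took its probe set of highest mean. A mean per group was fitted over all 39 arrays in limma 3.58.1 (R 4.3.3) with lmFit and eBayes (29 residual and 2.81 prior degrees of freedom), Benjamini-Hochberg adjusted over all genes. The same fit was made without ko 4 weeks replicate 2. No scaling or filter was added. The number of arrays limits the precision. The model was tested on simulated data.

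Members and the 29 gene lists (425 of 456 members measured) were chosen with earlier results of these data known. They are described by counts, without a test. Named were the 15 largest increases and 15 largest decreases called in both fits with ko replicates 1, 3 and 4 not overlapping wt, passing over unnamed clones and predicted models, all measured phototransduction and fate genes, up to 4 called members of each other list, and the 10 smallest p of the comparison with P10. Alternatives left out single arrays or 6 doubted ones, or changed the arrays fitted, replicate block, array weights, variance model, probe set rule, scaling, filter and threshold. The remaining list members were not analysed here. Promoters came from RefSeq (GRCm38.p6).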

Additional observations from a re-analysis of the deposited data

Results flagged for a closer look

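In 15 of 274 tests of whether the highest or lowest of the 4 arrays of a group lay far from the other 3 (Dixon's test), it did. Pooled over all arrays, this is near the share of about 1 in 20 that chance alone gives. Of the 15 flags, however, 12 concerned ko replicate 2 and 3 concerned wt replicate 1. Tests of different genes share the same arrays and are not independent, so the pooled share does not measure chance for a single array. In ko replicate 2 the high values were Nrl at 9.05 (others 5.60 to 5.77), Samd11 at 9.37 (others 7.81 to 8.02), Nr2f1 at 7.59 (others 4.89 to 5.17), Lrp4 at 10.40 (others 6.65 to 7.08), Rrm2 at 11.73 (others 5.11 to 5.61), Ccna2 at 10.56 (others 7.72 to 8.03), Sox11 at 12.67 (others 6.82 to 7.11) and Jun at 11.88 (others 10.24 to 10.38). Its low values were Gnat2 at 12.72 (others 13.24 to 13.31), Crx at 11.55 (others 12.07 to 12.11), Nxnl1 at 9.45 (others 9.94 to 9.97) and Bbs9 at 8.23 (others 8.52 to 8.56). In wt replicate 1 the values were Clca1 at 6.20 (others 5.56 to 5.64), Cckbr at 6.60 (others 6.04 to 6.09) and Tyrobp at 6.34 (others 6.03 to 6.07). Rrm2, Ccna2 and Sox11 belong to the lists of dividing and immature cells in which ko replicate 2 was the high array. They entered these tests as genes named after their values were seen, so their flags are no separate evidence about that array. Nrl, Samd11 and Lrp4 are genes whose ko minus wt difference was larger without ko replicate 2.

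The genotype difference at 4 weeks differed from that at P10, by the limma test of the difference itself, for 33 of the genes named, 22 of which were also called with only the arrays of both stages in the fit. The difference at 4 weeks minus that at P10 was positive for Clca1 (1.73), Fabp7 (2.45), Opn1mw (1.74), Prdm1 (1.31), Cox7a2 (0.67), Arhgdib (2.29), A930009A15Rik (1.80), Pygm (1.56) and Antxr2 (1.58). Of these genes, Clca1, Fabp7 and Pygm, the muscle glycogen phosphorylase, were called higher at both stages, and the other 6 at 4 weeks only. It was negative for Gnat1 (-1.75), Slc24a1 (-2.67), Slc22a29 (-3.84), Vax2os (-3.44), Kcnj14 (-3.30), Abca13 (-3.16), Cep164 (-2.92), Samd11 (-1.69) and Gnb5 (-2.07). It was also negative for Guca1a (-4.61), Guca1b (-2.87), Fscn2 (-0.94), Per3 (-1.32), Prkca (-1.70), Glb1l3 (-2.20), Bst1 (-2.41), 2810030D12Rik (-2.77) and Lrrc2 (-1.72), and for C4bp-ps1 (-2.42), Epas1 (-2.56), Tnfaip3 (-2.36), Ccn4 (-2.38), Aqp1 (-2.0) and Sgk1 (-2.35). Guca1a, with the most negative value of these genes, was called higher at P10 and was not called at 4 weeks. The values of the rod genes Gnat1 and Slc24a1 are extensions of a difference of the same sign at P10.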

How the results depend on the processing

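The rod genes called lower numbered 7 in every setting tried, and the cone genes called higher 9 to 11, against 10. Leaving out each of the 8 arrays at 4 weeks gave 712 to 779 genes at 4 weeks, against 860, and 119 to 171 for the comparison with P10, against 176, with 7 rod and 10 cone genes each time. Leaving out each P10 array, an alternative added after seeing the data, gave 125 to 746 for the comparison with P10, with 746 without wt P10 replicate 3 and at most 161 without another. At 4 weeks the count was 1389 without 6 doubted arrays (ko replicate 2 and the 5 arrays of lowest spread), 2924 with array weights and 483 with a difference of at least 1 (log2), or 465 of 751 without ko replicate 2. For the comparison with P10 it was 61 with only the arrays of both stages, 58 with these without ko replicate 2, 5646 with array weights and 378 with quantile normalization, and the cause was not tested. Same-numbered ko and wt arrays did not deviate together (r from -0.42 to 0.12, 4 pairs), so the numbers were not treated as pairs, and with the replicate block the counts were 755 and 119. Rbp3 turned to -0.49 with the mean over probe sets, and Sox11, not called in the fit of all arrays, to -1.14 in the fit of only the 4-week arrays without ko replicate 2. Directions were not compared for other genes that were not called. Many of the named genes had to be called without ko replicate 2 to be named. Of 101 called genes among 137 named ones, 86 kept their call whichever of the 8 arrays at 4 weeks was left out. The other 15 lost it in at least 1 such fit. With only the 4-week arrays 17 lost it, with these without ko replicate 2 12, and with the replicate block 6. Of 33 named genes called in the comparison with P10, 22 were called with only the arrays of both stages and 28 without each P10 array in turn. The 3' minus 5' signal of Actb differed by 0.23 without ko replicate 2. That of Gapdh differed by 0.21 with all arrays and by 0.17 without that array. With 4 arrays a group, a difference under the call threshold does not show equal levels, and signals under 8.0 hold background.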
